A study of Mus musculus with 6 samples.

Results

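A group of 38 genes was low in macrophages sorted from the naive mouse omentum. The group was clearly present in both omental libraries made after the injection of ID8 ovarian cancer cells. The genes were selected on deposited FPKM values (fragments per kilobase of transcript and sequencing depth), by an FPKM below 1 in naive omentum and of at least 10 at both 24 h and 7 d after injection. Of the 23946 genes in the table, 44 met these values. The 6 genes left out by name were Amhr2, Lgals2, Mmp11, Stra6, Wnt10a and Wnt6. For the 38 genes kept, low does not mean absent. Their median FPKM in naive omentum was 0.299, and the highest was 0.995, for Baiap2l1. Because the 3 omental libraries chose the genes, their omental values below are a description. The 3 mesenteric libraries took no part in the choice.

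RNA was sequenced from CD45+CD11b+F4/80+ cells of female C57BL/6 mice aged 6 to 8 weeks. OM0h denotes omentum and MY0h mesenteric adipose tissue of naive mice. OM24h and MY24h denote the same tissues 24 h after ID8 injection, and OM7d and MY7d those at 7 d. Whether both tissues came from the same mice is not stated. ID8 is a mouse ovarian surface epithelial tumor line from the C57BL/6 background, injected into the peritoneal cavity. The paper states pools of 3 omenta, and the pool size of the mesenteric libraries was taken to be the same. Each of the 6 conditions has a single library, so no spread between replicates of a condition exists and no test was run. A library from mice given vehicle alone was not analysed here, so an effect of the injection itself and one of the ID8 cells cannot be told apart. In sorted bulk RNA, more cells of a type and more RNA per cell cannot be told apart either.

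The peritoneal cavity and the omentum are covered by mesothelium, a sheet of coelomic epithelium. Mesothelial cells are known for Wt1, mesothelin, uroplakins and simple keratins, and the zinc finger factor Gata4 is known from the heart, the gonad and the coelomic epithelium. Tspan8 is a tetraspanin, one of the 4-pass membrane proteins that organize partner proteins in the plasma membrane, and is best known from epithelia. Me1 is the cytosolic malic enzyme, which makes NADPH for lipid synthesis. Tmem184a is a multi-pass membrane protein.

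The pan-leukocyte and macrophage genes of the sort were present in every library. Over 9 macrophage genes, the summed FPKM, mostly that of Lyz2, was 27150 in OM24h and between 3169 and 7838 in the other 5 libraries. None of the 9 was below 1 anywhere. Genes of cell types outside the gate were present too. The FPKM of a library summed to between 526887 and 713863, and the spacing of low values put the relative sequencing depth between 0.853 (OM0h) and 1.48 (OM7d) times that of MY0h. Values near 0 in OM0h therefore rest on the shallowest library.

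In the NCBIM37 (mm9) assembly, the build to which the reads were aligned, Gata4 lies on the minus strand of chromosome 14 (63817759 to 63890529). Tspan8 lies on the plus strand of chromosome 10 (115254340 to 115286949), and Tmem184a on the minus strand of chromosome 5 (140278439 to 140295871). Me1 lies on the minus strand of chromosome 9 (86474970 to 86589947). In the GENCODE M1 annotation the longest coding transcript has 7 exons for Gata4, 8 for Tspan8, 8 for Tmem184a and 14 for Me1. RefSeq promoter windows, each with 250 bases before and 50 after a transcript start in GRCm38.p6, were matched for 26 of the 38 genes. They are shown for Tspan8, Me1 and Tmem184a, the genes that mark the group together with Gata4 and are among its highest at 24 h. Gata4 had no matched window. In the Tspan8 window and in the second Me1 window, capitals mark the GATA motif (AGATAA or AGATAG or TGATAA or TGATAG, on either strand). In the first Me1 window and in the Tmem184a window, capitals mark the antioxidant response element core TGACNNNGC, also on either strand.
Tspan8, plus strand, chr10:115817034-115817333: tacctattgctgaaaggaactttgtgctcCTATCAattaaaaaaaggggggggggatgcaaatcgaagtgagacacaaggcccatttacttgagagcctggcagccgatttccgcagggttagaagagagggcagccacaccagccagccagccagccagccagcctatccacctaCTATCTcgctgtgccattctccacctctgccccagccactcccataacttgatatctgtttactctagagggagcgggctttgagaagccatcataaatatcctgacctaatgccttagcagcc
Me1 upstream start, minus strand, chr9:86695865-86696164: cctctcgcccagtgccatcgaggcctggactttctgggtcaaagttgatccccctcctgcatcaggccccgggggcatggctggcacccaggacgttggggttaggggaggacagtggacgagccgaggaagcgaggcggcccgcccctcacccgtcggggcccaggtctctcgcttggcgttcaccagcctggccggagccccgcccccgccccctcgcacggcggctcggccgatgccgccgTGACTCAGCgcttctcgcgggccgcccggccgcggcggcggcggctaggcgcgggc
Me1 downstream start, minus strand, chr9:86687228-86687527: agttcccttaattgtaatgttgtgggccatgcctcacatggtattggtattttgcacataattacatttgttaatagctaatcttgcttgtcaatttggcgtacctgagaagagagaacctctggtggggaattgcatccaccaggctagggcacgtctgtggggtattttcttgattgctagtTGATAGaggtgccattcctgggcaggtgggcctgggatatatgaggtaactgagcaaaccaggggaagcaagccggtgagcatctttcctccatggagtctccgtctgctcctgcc
Tmem184a, minus strand, chr5:139814234-139814533: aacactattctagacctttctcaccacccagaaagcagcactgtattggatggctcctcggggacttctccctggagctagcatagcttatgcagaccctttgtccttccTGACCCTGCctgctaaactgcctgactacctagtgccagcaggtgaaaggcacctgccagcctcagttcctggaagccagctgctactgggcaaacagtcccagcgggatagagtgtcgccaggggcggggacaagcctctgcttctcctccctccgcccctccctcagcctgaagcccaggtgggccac

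The 2 GATA matches of Tspan8 begin at -221 and -74 from the start, and the match of the downstream Me1 start at -66. The antioxidant element match begins at -6 at the upstream Me1 start and at -140 at the Tmem184a start shown. Tmem184a has 2 windows, and the upstream one is shown because it holds this match. The downstream one holds neither motif. A match describes letters and is no evidence of binding. Across the whole group the motif of Gata4 was no commoner than elsewhere: 5 of 32 windows held it (15.6%), against 19.2% of the 12441 windows of expressed genes and 29.8% of all 32851 windows. These 5 windows belong to Akr1cl, Kcnab1, Me1, Nr0b2 and Tspan8. The TEAD motif CATTCC was in 18.8% of the group's windows and 12% of those of expressed genes (14.7% of all). The AP-1 motif TGANTCA was in 6.25% and 5.47% (7.81% of all). The antioxidant element was in 12.5% and 14.5% (12.4% of all), and the TATA box letters TATAAA were in 9.38% and 7.56% (13.6% of all). All motifs were searched on both strands, and an AP-1 match can lie within an antioxidant element match. Some genes contribute several windows that are not independent. The windows of the group held fewer CpG dinucleotides than those of expressed genes, with medians of 8.5 and 20. They did not hold fewer than all windows, where the median was 7. Under 10 CpG were found in 16 of the 32 windows (50%) and in 24.4% of the windows of expressed genes. GC content was a median of 59.3% in the group and 60.3% in expressed genes.

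Summed over the 38 genes, the FPKM was 12.7 in OM0h, 911 in OM24h and 991 in OM7d, and 25.2, 28.4 and 21.4 in MY0h, MY24h and MY7d. The group thus made up 0.128% of all FPKM in OM24h and 0.177% in OM7d, and 0.00204% in OM0h. The median FPKM of a member was 0.299 in OM0h, 22 in OM24h and 20.4 in OM7d. In the mesentery the medians were 0.148, 0.141 and 0.164. In OM0h, 12 of the 38 genes were listed at 0 and 26 were above 0, so that "newly present" holds strictly for the former and as a crossing of the FPKM limit of 1 for the latter. For the 26 genes above 0, the FPKM ratio to OM0h was between 16 and 390 at 24 h (median 49.6) and between 15.6 and 881 at 7 d (median 45.9). By the rule, all 38 were at least 2-fold higher on the log2(FPKM + 1) scale at both times, against 18.3% of the 13064 expressed genes past that fold in either direction at 24 h and 12.9% at 7 d.

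**Figure D1:**
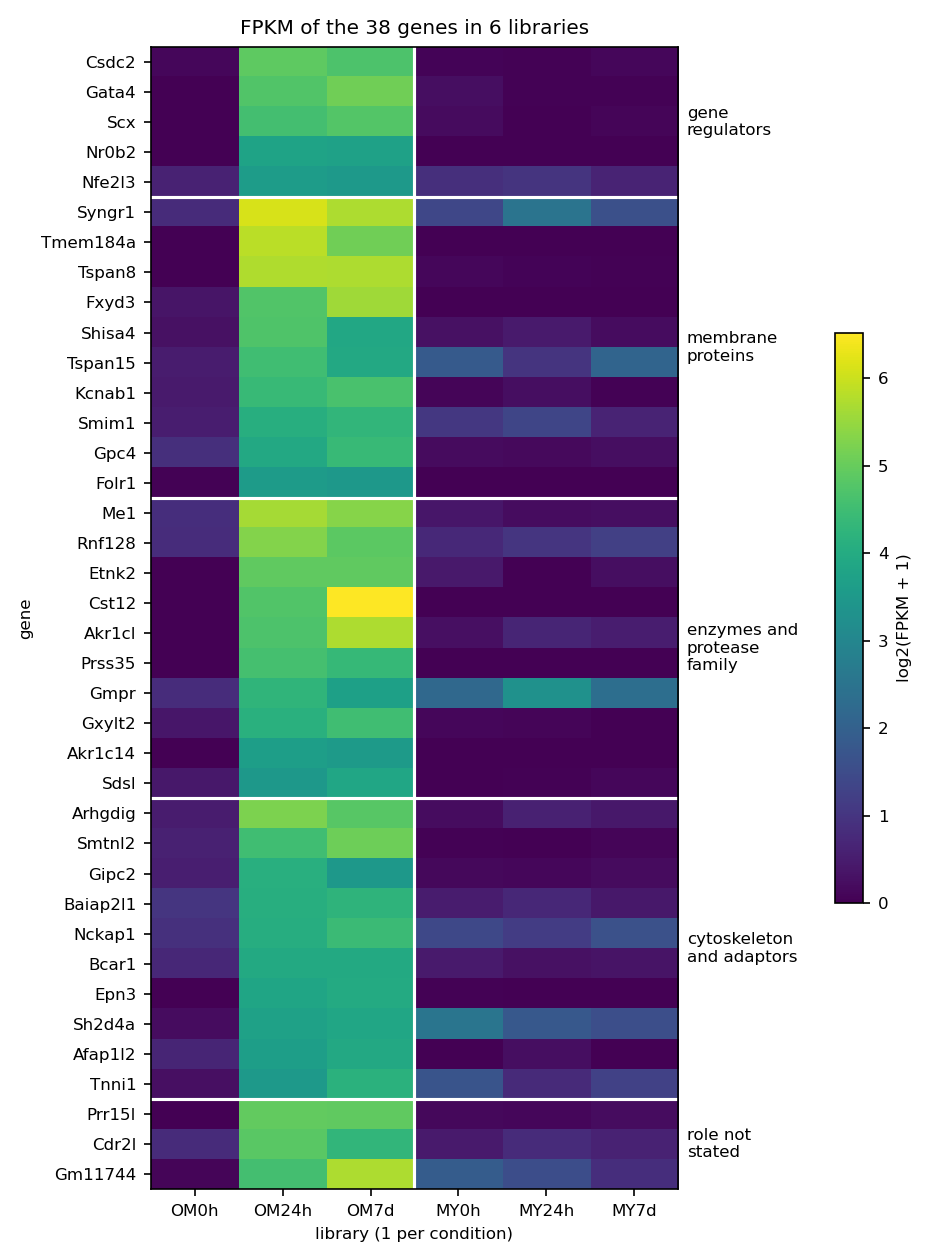
Heat map of log2(FPKM + 1), from dark (0) to yellow, for the 38 genes (rows, grouped by role and ordered by OM24h) in the 6 libraries (columns, 1 library each). All genes are bright only in OM24h and OM7d, and Gmpr, at most 8.76 FPKM in MY24h, is the brightest mesenteric entry.

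The same limits applied elsewhere in the table gave few genes. An FPKM below 1 in MY0h and of at least 10 in MY24h and MY7d was met by 1 gene, the microRNA gene Mir3061, which was listed at 0 in all 3 omental libraries. In the opposite direction, 4 genes were at 10 or more in OM0h and below 1 in both later omental libraries, and 10 genes were so in the mesentery. At single time points, 57 genes crossed both limits in the omentum at 24 h and 78 at 7 d, before any names were left out. In the mesentery the numbers were 12 and 4.

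Gene regulators formed a first group of 5. Gata4 was listed at 0 in OM0h and had an FPKM of 25.9 in OM24h and 33.1 in OM7d, against 0.177, 0.0341 and 0.0326 in MY0h, MY24h and MY7d. Scx, the basic helix-loop-helix factor scleraxis known from tendon progenitors, was also listed at 0 in OM0h, with 22.6 in OM24h and 26.5 in OM7d and no more than 0.139 in the mesentery. Nr0b2 encodes SHP, an orphan nuclear receptor that lacks a DNA-binding domain and represses other receptors. It was listed at 0 in 4 libraries and stood at 12.7 in OM24h and 12.2 in OM7d. Nfe2l3, a cap'n'collar leucine zipper factor, had the least separation of the 5, with 0.552 in OM0h, 11.2 and 10.3 after injection, and 0.831, 0.964 and 0.57 in the mesentery. Csdc2, a cold shock domain RNA-binding protein, stood at 0.0808, 29 and 25 in the omentum and at 0.0863 or less in the mesentery. None of the 5 reached an FPKM of 1 in a mesenteric library.

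From a list of 64 transcription factors of mesothelium, epithelium and stroma, 35 were expressed, and Gata4 was its only gene in the group. The list was written with earlier results of these data known. At least 2-fold higher than OM0h were 13 of the 35 at 24 h and 25 at 7 d, with 2 and 0 at least 2-fold lower. Over all expressed genes, 11.9% were higher and 6.45% lower at 24 h, and 11% and 1.96% at 7 d. The medians of the log2 difference were 0.40 and 1.27, where the median of all expressed genes was 0.00 at both times. In the mesentery no gene of the list was 2-fold apart at either time. Wt1, the coelomic epithelium factor, stood at 2.16, 25.2 and 38.1 in OM0h, OM24h and OM7d and at 0.00867 or less in the mesentery. It failed the rule only because OM0h was above 1. Nr5a1, the steroidogenic factor SF-1, stood at 0.0135, 8.85 and 14.1 and failed it only at 24 h. Osr1, a stromal and coelomic factor, had another course, with 11.6, 1.81 and 38.9.

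Membrane proteins made up 10 of the 38 genes and held 3 of the 4 highest values at 24 h. Syngr1, a synaptogyrin of small vesicles, was the highest of all in OM24h (69.1) and stood at 51.6 in OM7d and 0.745 in OM0h. It was also above 1 throughout the mesentery, with 1.61, 4.65 and 1.99. Tmem184a was listed at 0 in OM0h and in all mesenteric libraries and stood at 56.8 in OM24h and 33.6 in OM7d. Tspan8 was listed at 0 in OM0h, stood at 52.1 and 51.3 after injection, and did not exceed 0.0786 in the mesentery. For these 3 genes no mesenteric or naive library came near the omental values after injection.

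Fxyd3, a regulator of the sodium-potassium ATPase, was at 0.285, 26 and 47.2 in the omentum and listed at 0 in the mesentery. Folr1, the glycolipid-anchored folate receptor alpha, was at 0.03, 10.9 and 10.1 and likewise listed at 0 in the mesentery. It lay just inside the limit at both times. Gpc4, a heparan sulfate proteoglycan of the glypican family, was at 0.824, 14.2 and 19.9, and Kcnab1, a potassium channel beta subunit, at 0.375, 19.8 and 24. Both stayed under 0.2 in the mesentery, with highest values of 0.186 and 0.191. Shisa4 was at 0.218, 25.6 and 13.9, with 0.386 as its highest mesenteric value.

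Tspan15, the tetraspanin partner of the protease ADAM10, had higher mesenteric levels than Tspan8. It stood at 0.402, 21.9 and 14.2 in the omentum and at 2.6, 0.986 and 3.31 in MY0h, MY24h and MY7d. Smim1, a small red cell membrane protein that carries the Vel antigen, was at 0.425, 16 and 18.7 and at 1.09, 1.55 and 0.564. Both were thus higher in naive mesentery than in naive omentum. Of 31 tetraspanins and other small membrane proteins listed, again with earlier results known, 24 were expressed and 4 belonged to the group. At least 2-fold higher than OM0h were 16 of the 24 at 24 h and 16 at 7 d, with 2 and 0 at least 2-fold lower. In either direction this is 75% and 66.7%, against 18.3% and 12.9% of expressed genes, with the 4 members selected to be higher included. Among those outside the group, Tm4sf1 stood at 4.63, 156 and 97.8 and Cd9, which macrophages also express, at 207, 342 and 287.

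Enzymes and members of protease families were another 10 genes. Me1 was at 0.816 in OM0h, 49.2 in OM24h and 39 in OM7d, and its mesenteric values were 0.313, 0.161 and 0.185. Prss35, a secreted protein of the serine protease family, was listed at 0 in OM0h and throughout the mesentery and stood at 23.1 and 19.6. The 2 genes are neighbors: Prss35 lies on the plus strand of chromosome 9 (86636434 to 86650680), 46486 bases from Me1. This gap wholly holds 0 protein-coding genes. The protein-coding gene A330041J22Rik overlaps Me1 on the opposite strand, sharing 30 exon bases, and whether it reaches into the gap is not given. Between 7 d and 24 h the log2 difference was -0.33 for Me1 and -0.23 for Prss35, and 0.01 and 0.11 after each library was rescaled to the same sum, so neither gene had a direction that held. No other pair in the group was adjacent. The next closest, Shisa4 and Tnni1 on chromosome 1, were 407827 bases apart. The 37 genes with a position lay on 17 chromosomes, with at most 5 on 1 of them, chromosome 11.

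Among the aldo-keto reductases, which reduce steroids and other carbonyls, Akr1c14 was listed at 0 in 4 libraries and stood at 11.5 and 10.7 after injection. Akr1cl was listed at 0 in OM0h and stood at 24.7 and 51.9, with 0.212, 0.59 and 0.438 in the mesentery. Cst12, of the cystatin family of cysteine protease inhibitors, was listed at 0 in OM0h and in the mesentery and stood at 26 in OM24h and 90.5 in OM7d, the highest omental value of the group. Etnk2, the ethanolamine kinase of phospholipid synthesis, was listed at 0 in OM0h and stood at 29.6 and 29.5, with at most 0.356 in the mesentery. Rnf128, the ubiquitin ligase GRAIL, was at 0.788, 38.6 and 28.2, and at 0.673, 0.992 and 1.34 in the mesentery. Gxylt2, which adds xylose to Notch repeats, was at 0.314, 16.7 and 21.9, and Sdsl, related to serine dehydratase, at 0.335, 10.1 and 13.5.

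Gmpr, the guanosine monophosphate reductase of purine salvage, had the smallest separation between the tissues. It stood at 0.773, 18.1 and 12 in the omentum and at 3.63, 8.76 and 4.07 in MY0h, MY24h and MY7d. The lower of its omental values after injection was 1.37 times its highest mesenteric value, the lowest such ratio of the group. Over the 31 genes above 0 somewhere in the mesentery, this ratio had a median of 51.9 and was 653 for Tspan8. The 188 expressed genes matching a list of metabolic enzyme families held 3 of the group (Akr1c14, Akr1cl and Me1). Counts past 2-fold were 46 higher and 10 lower at 24 h (29.8% in all, background 18.3%), and 47 and 8 at 7 d (29.3%, background 12.9%). Among 59 proteases and inhibitors, with Cst12 and Prss35 from the group, 21 were higher and 7 lower at 24 h (47.5%), and 21 and 4 at 7 d (42.4%).

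Cytoskeletal and adaptor proteins were the lowest group of 10, with a median FPKM of 15.2 in OM24h and 15.8 in OM7d. Arhgdig was the highest of them at 24 h, with 0.419, 36.3 and 27.3 in the omentum and at most 0.526 in the mesentery. Smtnl2, a smoothelin-like protein, was at 0.523, 22.1 and 33. Bcar1, the focal adhesion scaffold p130Cas, was at 0.664, 14.6 and 14.6, and Baiap2l1, which bends membranes at actin-rich protrusions, at 0.995, 15.9 and 17.9. Neither Bcar1 nor Baiap2l1 reached 1 in the mesentery.

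Epn3, an epsin of clathrin-mediated uptake, was listed at 0 in OM0h and stood at 13.2 and 14.8. Afap1l2, an actin-associated adaptor of tyrosine kinases, was at 0.61, 11.6 and 14.3, and Gipc2, a PDZ domain protein, at 0.466, 16.3 and 10.1. Nckap1, a subunit of the WAVE complex that drives actin branching, was at 0.855, 15.8 and 20.9 and at 1.67, 1.23 and 2.05 in the mesentery. Sh2d4a, an SH2 domain protein, was at 0.172, 12.3 and 13.6 and at 4.74, 2.48 and 1.98. Tnni1, the slow skeletal muscle troponin I, was at 0.209, 10.5 and 16.8 and at 2.22, 0.709 and 1.39. Of 131 expressed genes on a list of cytoskeleton and matrix families, of which Gpc4 belongs to the group, 36 were at least 2-fold higher and 13 lower at 24 h (37.4%, background 18.3%), and 39 and 7 at 7 d (35.1%, background 12.9%).

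For the last 3 genes no role is given. Prr15l was listed at 0 in OM0h and stood at 29.9 and 29.2, with at most 0.157 in the mesentery. Cdr2l was at 0.758, 28 and 18.7, with at most 0.741 in the mesentery. Gm11744, which RefSeq names Prcd, was at 0.058, 22.6 and 51.1 in the omentum and at 2.7, 1.91 and 0.814 in MY0h, MY24h and MY7d. Its ratio of OM7d to OM0h, 881, was the highest of the genes above 0 in OM0h.

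Most of the group differed little between the time points after injection, both of which the rule used. Genes that reached its limit at only 1 of these times were left out in advance, so the shares below are a description. Between OM7d and OM24h, 3 of the 38 genes (7.89%) were at least 2-fold apart on the log2(FPKM + 1) scale, against 11.5% of expressed genes, a share near that of the background. The 3 genes were all higher at 7 d: Cst12 by 1.76, Gm11744 by 1.14 and Akr1cl by 1.04. Next came Fxyd3 by 0.84, Tnni1 by 0.63 and Smtnl2 by 0.56. The largest differences toward 24 h were those of Shisa4 (-0.83), Tmem184a (-0.74), Gipc2 (-0.64), Tspan15 (-0.59), Cdr2l (-0.56) and Gmpr (-0.55), none of which reached 2-fold. In all, 18 genes were higher and 20 lower at 7 d, and this split was 29 higher and 9 lower after each library was rescaled to an FPKM sum of 1000000. As deposited, the FPKM ratio of OM7d to OM24h had a median of 0.998 (range 0.544 to 3.48). It was within 1.5-fold for 29 genes.

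**Figure D2:**
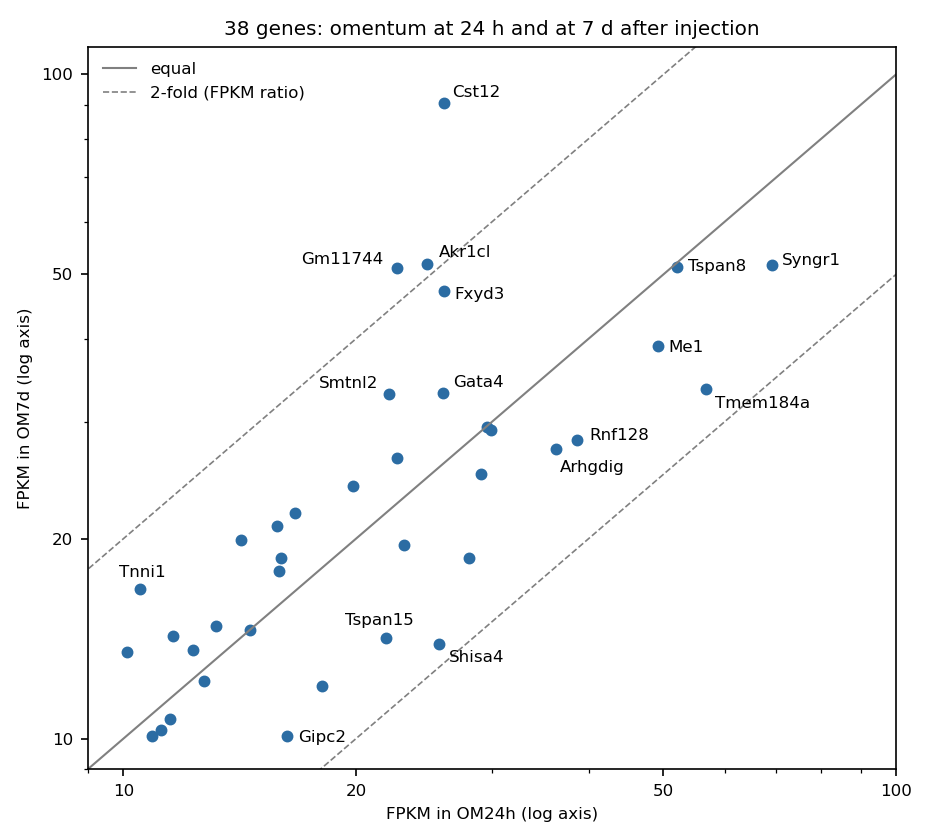
Scatter of FPKM in OM24h (x, log axis) against OM7d (y, log axis) for the 38 genes, 1 point a gene. The solid line marks equality and the dashed lines a 2-fold FPKM ratio. Cst12 (26 and 90.5), Gm11744 and Akr1cl lie above the upper dashed line and no gene lies below the lower one.

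The mesentery, which the selection did not use, held little of the group at any time. In all 3 mesenteric libraries, 29 of the 38 genes (76.3%) were below an FPKM of 1, and 7 of these were listed at 0 in each (Akr1c14, Cst12, Folr1, Fxyd3, Nr0b2, Prss35 and Tmem184a). For comparison, of the 6023 genes at 10 or more in both OM24h and OM7d, 125 (2.08%) were below 1 throughout the mesentery. These shares are not independent of the rule, since only 44 of the 6023 genes (0.731%) were below 1 in OM0h. The share among the 12768 genes below 1 in OM0h, which would match that limit, is not given here. The other 9 members were above 1 in at least 1 mesenteric library and 4 of them (Gmpr, Nckap1, Sh2d4a and Syngr1) in all 3. No member reached 10, and the highest mesenteric value was 8.76 for Gmpr.

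Few of these genes were called apart between the mesenteric libraries, where most were too low to be called. Between MY24h and MY0h, 2 genes (5.26%) were at least 2-fold apart, against 4.32% of expressed genes. They were Syngr1 (1.12, FPKM 4.65 against 1.61) and Gmpr (1.08, 8.76 against 3.63), both higher at 24 h. Between MY7d and MY0h only Gm11744 passed (-1.03, 0.814 against 2.7), 2.63% of the group against 2.79% of expressed genes. Between MY7d and MY24h only Tspan15 passed (1.12, 3.31 against 0.986), again 2.63%, against 5.37%. All 3 shares were near their background.

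Between the naive tissues, 5 genes (13.2%) were at least 2-fold apart, all lower in OM0h than in MY0h, against 16.2% of expressed genes. These were Sh2d4a (-2.29), Gm11744 (-1.81), Tnni1 (-1.41), Gmpr (-1.39) and Tspan15 (-1.36). On the log2(FPKM + 1) scale the limit on OM0h leaves no room for a 2-fold difference the other way. In all, 17 of the 38 genes were higher in MY0h, 16 were lower and 5 were listed at 0 in both. After injection the tissues were far apart. At 24 h, 37 of 38 genes were at least 2-fold higher in OM24h than in MY24h, where 24.1% of expressed genes differed in either direction, the exception being Gmpr (0.96). At 7 d all 38 were at least 2-fold higher in OM7d than in MY7d, where 19.1% of expressed genes differed. The lower differences at 7 d were those of Gmpr (1.36) and Tspan15 (1.82), and the median was 4.06, after 4.01 at 24 h. The omental side of these comparisons was set by the selection.

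**Figure D3:**
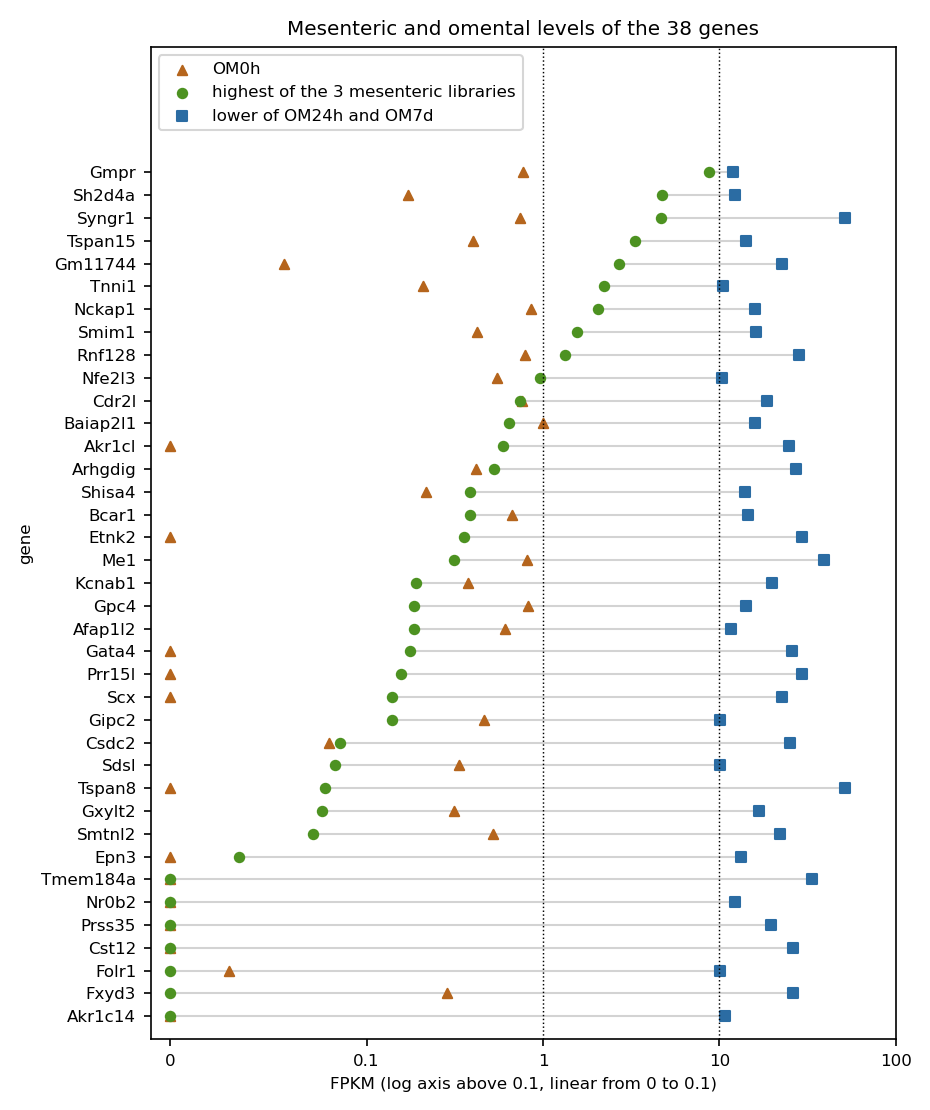
For each of the 38 genes (rows), FPKM in OM0h (triangles), the highest of the 3 mesenteric libraries (circles) and the lower of OM24h and OM7d (squares), on an axis that is logarithmic above 0.1 and linear below. Dotted lines mark the limits of 1 and 10 FPKM. In every row the square lies to the right of the circle, closest for Gmpr (12 against 8.76), and 7 circles lie at 0.

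Most mesothelial markers moved with the group. Of 13 mesothelial markers 12 were in the table, and their summed FPKM was 127 in OM0h, 1075 in OM24h and 1191 in OM7d, against 1.71, 1.82 and 2.29 in the mesentery. At least 2-fold higher than OM0h were 9 of the 12 at 24 h and all 12 at 7 d. Unlike the 38 genes, 11 of these 12 were above 1 in OM0h, for example Krt19 (25.4, then 406 and 349), Upk3b (23.7, then 215 and 259) and Msln (5.27, then 53.8 and 59.2). The exception was Bnc1 (0.237, then 2.27 and 7.25). The mesothelial sum was thus 8.47 times higher at 24 h and 9.38 times higher at 7 d, where the sum of the 38 genes, selected for a low OM0h, was 71.7 and 78.1 times higher. Nkain4, on the mesothelial list, was at 18.9, 14.8 and 89.3 and did not follow the group at 24 h. Krt7 (2.05, 2.58 and 17.9) and Lrrn4 (6.44, 12.6 and 35.1) also stayed below 2-fold at 24 h, with log2 differences of 0.23 and 0.87. The part of mesothelial RNA in the values of the group was not tested.

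Over 7 genes of the ovarian surface and gonad, the sum was 1.6, 260 and 368 in the omentum and at most 0.673 in the mesentery. Amhr2, with 0.397, 223 and 315, made up most of it. This gene met the limits of the rule and was left out by name. Next came Gata4, itself one of the 38, Nr5a1 and small amounts of Inhba and Foxl2. Nr0b1 was listed at 0 in every library and Lhx9 did not exceed 0.179. The rise of this sum was thus largely that of genes the limits had selected. Of 7 epithelial genes, 4 were below 1 in both OM24h and OM7d, and the sum was 14.2 in OM0h, 14.2 in OM24h and 23.2 in OM7d. This sum hides opposite courses. At 24 h, 2 of the 7 were at least 2-fold higher, Cldn3 (0.666, then 6.62 and 12.1) and Cdh1 (0.122, then 1.94 and 1.2). The gene Epcam (13, then 5.45 and 9.44) was the 1 that was lower. At 7 d, 1 was higher and 0 lower. Fibroblast markers had another course from the group: their sum was 346 in OM0h, 222 in OM24h and 1194 in OM7d, with 0 of 7 at least 2-fold higher at 24 h and 4 at 7 d. Endothelial markers summed to 42.1, 9.23 and 32.8 and adipocyte markers to 17.5, 4.21 and 5.68, lower at 24 h than before injection.

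Most leukocyte lists moved otherwise. The macrophage sum was 7838, 27150 and 7380 in the omentum, so that at 7 d it was 0.942 times OM0h while the group was as high as at 24 h. Lyz2 made up most of this sum (7054, 24780 and 6791). Of the 9 macrophage genes, 7 were at least 2-fold higher at 24 h and 0 at 7 d, and Ptprc was lower at 24 h (106 against 182). The neutrophil sum, in contrast, was higher at both times, at 6792, 15901 and 17119 (2.34 and 2.52 times OM0h). Of its 5 genes in the table, 5 were at least 2-fold higher at 24 h and 3 at 7 d, with 0 lower at either time. B cell, T cell, NK cell and mast cell sums were lower in OM24h than in OM0h, at 0.227, 0.177, 0.0277 and 0.092 times, and at 0.619, 0.991, 0.421 and 0.993 times in OM7d. Proliferation genes summed to 30.8, 62.7 and 42.9. Pancreatic acinar genes summed to 114, 90.5 and 20.1, the 3 hepatocyte genes were listed at 0 in the omentum, and the 3 enterocyte genes summed to at most 0.279. The part of these cell types in the values of the group was not tested.

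**Figure D4:**
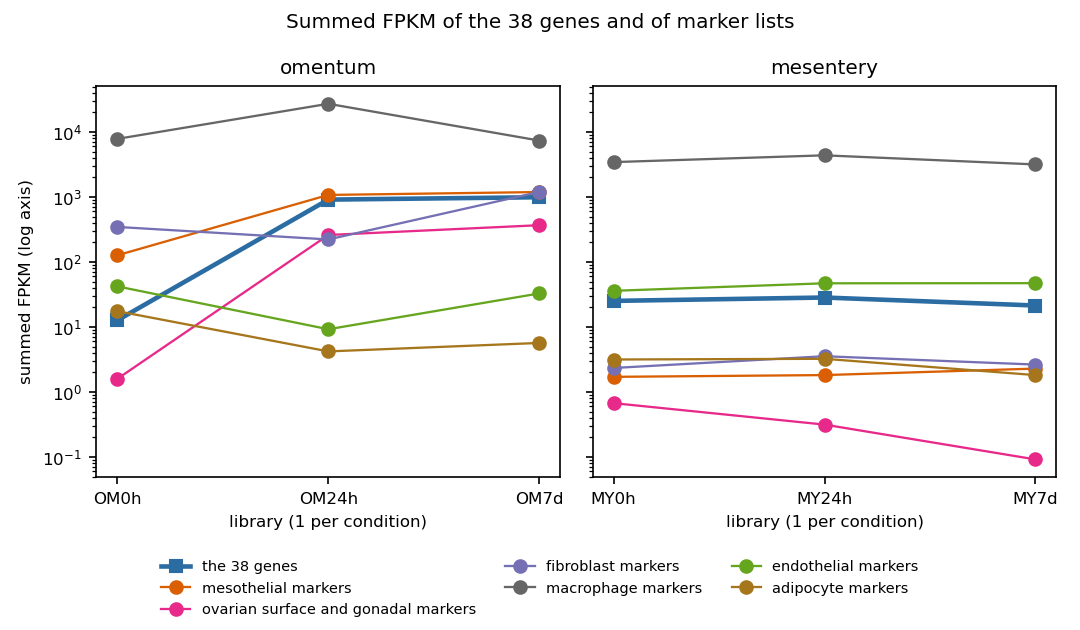
Summed FPKM (log axis) of the 38 genes (thick line, squares) and of 6 marker lists (circles) in the omental (left) and mesenteric (right) libraries, 1 library a point. The 38 genes go from 12.7 to 911 and 991 in the omentum, next to the mesothelial list (127, 1075 and 1191), and stay between 21.4 and 28.4 in the mesentery.

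The remaining gene lists are given beside the share of all expressed genes past 2-fold in either direction, 18.3% at 24 h and 12.9% at 7 d. Of 42 expressed junction and adhesion genes, none of which belongs to the group, 22 were at least 2-fold higher and 6 lower at 24 h (66.7%), and 23 and 0 at 7 d (54.8%). Of 310 solute carriers and channels, with Kcnab1 from the group, the counts were 58 and 15 at 24 h (23.5%) and 37 and 6 at 7 d (13.9%), the latter near the background. Of 169 secreted growth factors and binding proteins they were 59 and 14 (43.2%), then 72 and 3 (44.4%). Of 301 receptors and signalling genes they were 60 and 30 (29.9%), then 72 and 7 (26.2%). Of 33 complement and coagulation genes they were 10 and 4 (42.4%), then 14 and 3 (51.5%). In the mesentery at 24 h the background was 4.32%. The counts higher and lower were 0 and 0 for junction genes, 14 and 4 for solute carriers (5.81%) and 10 and 3 for secreted factors (7.69%). They were 17 and 3 for receptors (6.64%) and 8 and 1 for complement (27.3%). For lists described earlier they were 7 and 1 for proteases and inhibitors (13.6%) and 16 and 3 for metabolic enzymes (10.1%). Cytoskeleton and matrix genes had 5 and 2 (5.34%), and tetraspanins and other small membrane proteins 1 and 0 (4.17%).

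The limits of the rule cut through a continuous range. Just inside the limit in OM0h were Baiap2l1 (0.995), Nckap1 (0.855) and Gpc4 (0.824), and just outside it Ephb6 (1.01), Sulf1 (1.01) and Foxo6 (1.05). At 24 h, Sdsl (10.1), Tnni1 (10.5) and Folr1 (10.9) were inside and Lgr4 (9.43), Dync1i1 (9.21) and Uchl1 (9.03) outside. At 7 d, Gipc2 (10.1), Folr1 (10.1) and Nfe2l3 (10.3) were inside and Pald1 (9.58), Irg1 (9.51) and Smad6 (9.15) outside.

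Shared sequence was looked for as a source of reads from other genes. For the 37 members with coding transcripts in GENCODE M1, 0 windows of 75 bases were shared with a coding transcript of another gene. The exons of 7 members share bases with a gene on the opposite strand, and strand-specific counting is not stated. The largest overlaps were 2059 bases of Fxyd3 with Lgi4, whose FPKM did not exceed 1.49, 494 bases of Akr1cl with the pseudogene Gm8550, which has no value here, and 201 bases of Gm11744 with Cygb. Cygb stood at 2.53, 7.85 and 16.4 in OM0h, OM24h and OM7d and at 17.4, 14.8 and 10.2 in MY0h, MY24h and MY7d, in the same order as Gm11744 in both tissues. The part of Cygb reads in Gm11744 was not tested. Tmem184a shares 169 bases with Mafk, which stood between 21.7 and 43.7 in all libraries, including the 4 in which Tmem184a was listed at 0.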

How the data were processed

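Omental and mesenteric CD45+CD11b+F4/80+ cells were sequenced in 6 libraries, with tissue of 3 mice pooled for each omental library and taken to be so for the mesenteric ones. The authors checked reads with FastQC 0.11.4, aligned them with STAR 2.4.2a to mm9 and made the deposited FPKM table with Cufflinks. FPKM are not counts, so no count model was run. Differences were computed as log2(FPKM + 1), which understates the change of low genes, with Python 3.11.15, numpy 2.4.6 and pandas 2.3.3, and figures drawn with matplotlib 3.10.9. Genes reaching an FPKM of 1 in any library were taken as expressed (13064 genes) and called apart at 2-fold, the fold used in the methods of the study. A value of 0 is given as listed at 0, without a fold change.

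The members and all lists were chosen with earlier results of these data known. Role groups were assigned after the members were known. Genes named with values are the markers, the highest members at each time, those with the largest differences between times, members on the lists, and genes next to the limits. Members outside this rule, and other genes, were named after their values were seen. Relative depth came from the commonest ratio of FPKM below 0.1 in a pair of libraries. Positions are from GENCODE M1, whereas splice junctions came from a UCSC annotation, and Smim1 had none. Promoter windows are from RefSeq (GRCm38.p6) and were used for sequence only. Counting and rescaling were tested on simulated data. Alternatives were pseudocounts of 0.1 and 5, a rescaling of each library to a sum of 1000000 or by the median ratio, no filter on low values, and other limits for the rule.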

Additional observations from a re-analysis of the deposited data

Results flagged for a closer look

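With the main setting, Gm11744 was the only member at least 2-fold lower than the naive level in the mesentery. Its log2 difference was -1.03 at 7 d (FPKM 0.814 against 2.7), while it was higher in the omentum (51.1 against 0.058). This call lay at the edge of the limit and was lost with a pseudocount of 5. Sh2d4a came next with -0.94 (1.98 in MY7d against 4.74 in MY0h), and stood at 13.6 in OM7d against 0.172 in OM0h. After rescaling to a sum of 1000000, Sh2d4a passed too. Gm11744 was singled out because the libraries of the tissues moved in opposite directions. The rule had fixed the omental rise of every member, so the opposite direction rests on the mesenteric fall alone. Gm11744 also shares 201 exon bases with Cygb, which stood at 17.4, 14.8 and 10.2 in MY0h, MY24h and MY7d. The part of Cygb reads in this fall was not tested. With 1 library per tissue and time the difference of Gm11744 between the tissues was not tested.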

How the results depend on the processing

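No paired analysis was possible because the conditions share fewer than 2 replicate numbers. A fit of tissue across the 3 time points was not run. A count was taken as unchanged within 1.5 times, and a log2 difference within 0.58. The rule found 12 genes with limits of 0.5 and 20, all among the 38, and 170 with limits of 2 and 5. After rescaling to a sum of 1000000 it found 50, of which 29 were shared, and after the median ratio the 38 were recovered. Without the limit at 7 d it found 50, and without that at 24 h 71, both chosen after seeing the data. Counts of members on low mesenteric or naive values followed the pseudocount. With 0.1, 5 were at least 2-fold higher and 5 lower in MY24h than in MY0h, 3 were lower in MY7d than in MY0h, and 11 were higher and 12 lower in OM0h than in MY0h. With 5, these counts were 0 for genes higher in MY24h, lower in MY7d and lower in OM0h. Rescaling to a sum of 1000000 gave 2 lower in MY24h, 2 lower in MY7d, and 1 member at 10 or more in the mesentery. It moved the median of all expressed genes to -0.17 at 24 h and 0.12 at 7 d, and the median difference of OM7d against OM24h to 0.36, with 0.34 for the 38 genes. The causes were not tested. Rescaling to that sum also gave 29 members higher and 9 lower in OM7d than in OM24h, against 18 and 20, in a comparison added after the values were known. The other counts of members that were recomputed stayed within 1.5 times, and 10 background counts over all expressed genes moved with the pseudocount. Of 912 recomputed log2 differences of single members, 706 stayed within 0.58, 206 moved and 0 changed sign among those at least 2-fold.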

Other observations

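Below an FPKM of 1 throughout the mesentery and no lower than 10 in OM24h and OM7d were 125 genes, of which 32 were below 1 in OM0h and 93 were at 1 or more there. The 32 are 29 of the 38 genes and 3 of those left out by name (Amhr2, Lgals2 and Wnt10a), so most genes with this tissue pattern were at 1 or more in the naive omentum. The gene Arg1, which the rule names, met the limits in OM0h (0.463) and OM24h (213) and not in OM7d (5.62). Of the 6 genes left out by name, Lgals2, a galectin, was listed at 0 in the mesentery and stood at 0.149, 57.1 and 59.8 in the omentum, and Wnt10a stood at 0.486, 40.3 and 13.9.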
